A study of Mus musculus with 7 samples.

Results

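Each Flag ChIP-seq file of this study lists 36733 positions given as transcription start sites (TSSs), and 11266 of them form the set described here. They carry no RefSeq identifier and lie more than 4000 bp from every row that has one on the same chromosome. The nearest such row was 4003 bp away, the median distance was 45174 bp, 5998 rows lay on the plus strand and 5268 on the minus strand. The other rows were 22704 with a RefSeq identifier and 2763 without one that lie close to a RefSeq row. Isolated rows are therefore positions that a list based on RefSeq genes leaves out. They include coding starts without a RefSeq row of that gene name, second starts of known genes, noncoding RNAs and gene segments. Others are positions whose transcript has no name in the files. No measured value was used to choose the isolated rows.

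Chromatin was taken from E14 mouse embryonic stem cells (ESCs). In the Tip60-H3F and Hdac6-H3F lines the endogenous protein carries a C-terminal tag of histidine and Flag epitopes. The Flag-M2 antibody therefore precipitates Tip60, the acetyltransferase of the Tip60-p400 chromatin complex, or Hdac6, a deacetylase known mainly for its work on cytoplasmic proteins such as tubulin. Tip60-H3F ESCs were infected with lentivirus against GFP, the control knockdown (KD), or against Hdac6. Hdac6-H3F ESCs received GFP KD or Tip60 KD, all KD samples were collected 72 hr after infection, and wild-type E14 ESCs without a tag gave the background of the antibody. The sample titled as Hdac6 ChIP upon Tip60 KD bears the genotype label Hdac6-H3F/ Hdac6KD, and it was grouped by its title. Each group holds 1 sample, so each difference compares 2 libraries, and the cultures and the KD cannot be told apart. The files of p400 ChIP, 2 samples, do not hold these rows and were not used.

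Promoters of vertebrates fall broadly into those within CpG islands, which are rich in unmethylated CG dinucleotides and drive widely used genes, and those outside them, many of which act in few tissues. Chromatin at CpG islands is open in ESCs, and the Tip60-p400 complex is known to act at such promoters. Outside genes, dense runs of RNA ends are known from the clusters that give rise to piRNAs, small germ-line RNAs that mostly begin with uridine and silence transposons.

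By position, 4031 of the 11266 rows (35.8%) lay within 50 bp of a transcript start on the same strand in the GENCODE M1 annotation of mm9, and 7235 (64.2%) did not. The largest annotated class was starts of protein-coding transcripts with 3000 rows, of which 1052 belonged to genes that also had a RefSeq row elsewhere and 1948 did not. Another 846 rows lay at starts of long noncoding RNA genes, 329 of them annotated as lincRNA and 517 as processed transcript. The rest of the annotated starts were 127 immunoglobulin or T cell receptor gene segments, 40 pseudogenes, 11 miRNAs and 7 other small RNAs. Among rows without an annotated start, 2792 lay inside a gene on its own strand, 404 inside a gene on the opposite strand and 4039 outside genes.

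Many rows inside genes were exon boundaries. Of the 2792 rows inside a gene on its strand, 939 (33.6%) lay within 5 bp of the start of an annotated exon, and the genome had AG, the bases that close nearly all introns, directly before 847 of these (90.2%). Among the other 1853 rows inside genes, AG preceded 127 (6.85%). The annotation places no transcript start at this class, so the members are called rows here.

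The rows also clustered. Joined wherever neighbours lay within 4000 bp, they made 7503 groups, of which 6790 were single rows and 649 held 2 to 9 rows, 1558 in all. The remaining 64 groups held 10 or more rows each and together 2918 rows, 25.9% of the set. Neighbours within these dense groups lay a median of 166 bp apart, and 2460 of their rows were outside annotated genes. Of the 2918 rows, 2583 (88.5%) began with T on their own strand. The share was 23.0% in groups of 2 to 9 rows, 12.0% for single rows and 8.47% for RefSeq rows. In 59 of the 64 dense groups at least 80% of the rows began with T, and in 2 groups, with 48 rows together, under 50% did. One of the latter lay at T cell receptor segments, chr14:54776793-54835966, where 15.8% of 38 rows began with T.

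The first 30 bases of 1 row from each of 4 large dense groups are printed because the shared first base sets these rows apart from the others. The groups span chr17:27431738-27487682 with 211 rows, chr2:92381532-92435687 with 180, chr9:67541976-67590689 with 162 and chr6:127735359-127769147 with 135. Each row was taken from the rows of its group that begin with T, as the one with most reads over the 5 libraries, so its first base was chosen and is no further evidence. Sequences are from mm9, read 5′ to 3′ on the row's strand, with the first base in capitals.
Row of the chr17 group, minus strand, chr17:27438133-27438162: Tgaaatagaggttcctgcaaagtaccaggt
Row of the chr2 group, plus strand, chr2:92428735-92428764: Tgatggagtgcttaccttcgtgtgttccca
Row of the chr9 group, minus strand, chr9:67573444-67573473: Tgtactgtttactttacccttcctgacagc
Row of the chr6 group, minus strand, chr6:127745113-127745142: Tgtgaacagtgagtgactttggtttaggag
Of the rows in these groups, 191 of 211, 167 of 180, 148 of 162 and 122 of 135 began with T. Whether the dense groups were built from records of small RNAs was not tested.

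**Figure D1:**
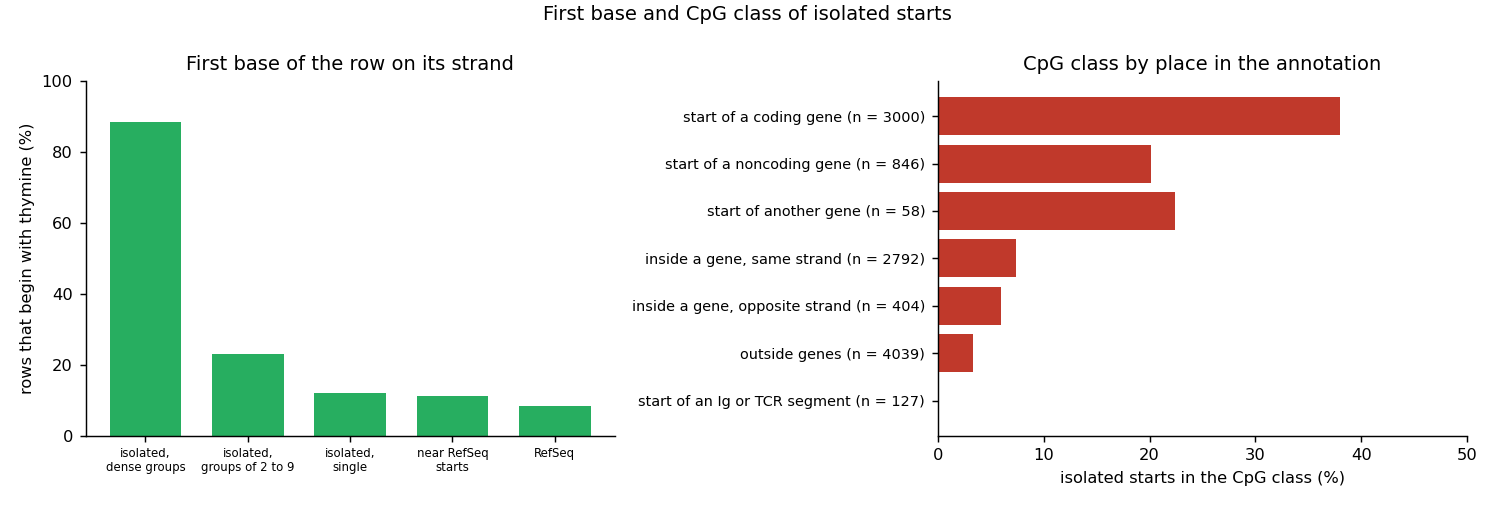
Left, share of rows that begin with thymine on their own strand (%), for isolated rows by group size, for rows near RefSeq starts and for RefSeq rows. Right, share of isolated rows in the CpG class (%) by their place in the GENCODE M1 annotation. The dense groups stand at 88.5% and every other class on the left at 23.0% or below, while coding starts hold most CpG rows on the right, at 38.0%.

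Few isolated rows lay in CpG islands. With at least 50% GC and an observed over expected CG count of at least 0.6 within 250 bp, a CpG class held 1688 of 11266 isolated rows (15.0%) against 10939 of 22704 RefSeq rows (48.2%) and 1492 of 2763 rows near RefSeq starts (54.0%). Median GC content was 48.9% in isolated and 58.1% in RefSeq rows. By place, the CpG class held 38.0% of coding starts, 39.2% of lincRNA starts, 7.93% of processed transcript starts, 7.41% of rows inside genes on the same strand, 3.32% of rows outside genes, none of the 127 immunoglobulin and T cell receptor segments and 6 of the 2918 rows in dense groups. Of the 939 rows at exon starts inside genes, 18 were in the class. Without an annotated start, 365 rows were in the CpG class.

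The motifs searched were mostly rarer at isolated rows than at all rows. Among short motifs searched on both strands from 250 bp before to 49 bp after the row, CCGGAAG, which ETS factors bind, was present at 4.38% of isolated rows and 9.29% of all rows, but at 15.8% of isolated CpG rows and 19.5% of RefSeq CpG rows. The full CRE motif TGACGTCA was present at 0.843% of isolated and 1.85% of all rows. The TATA box TATAAA, searched from 40 to 15 bp before the row, was present at 1.46% of isolated and 1.76% of all rows. The octamer ATTTGCAT, which Pou factors such as Oct4 bind, was present at 1.46% and 1.56%.

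Levels were low, and the number of reads sets how firmly a single row can be described. The libraries had been normalized to 21339300 reads (Tip60 ChIP upon GFP KD), 19161100 (Tip60 ChIP upon Hdac6 KD), 11586200 (Hdac6 ChIP upon GFP KD), 9226710 (Hdac6 ChIP upon Tip60 KD) and 23146800 (untagged). Within 500 bp, isolated rows held a median of 10 reads in the Tip60 ChIP upon GFP KD, 8 upon Hdac6 KD, 7 in the Hdac6 ChIP upon GFP KD, 6 upon Tip60 KD and 11 in the untagged ChIP. Scaled to 1000000 reads in the library (rpm), the medians were 0.469, 0.418, 0.604, 0.650 and 0.475 in that order, against 0.609, 0.470, 1.04, 0.975 and 0.518 at RefSeq rows. In all 5 libraries 314 isolated rows held 0 reads, 48 of them in dense groups. A count of 0 allows up to 3 reads, and intervals and floors cover counting error only. Of 232 rows just past the distance limit, 4000 to 5000 bp from a RefSeq row, the medians were 0.515, 0.470, 0.863, 0.867 and 0.562 rpm. The 229 rows without RefSeq identifier just inside it, at 3000 to 4000 bp, had 0.515, 0.418, 0.777, 0.759 and 0.562 rpm.

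Rows in the CpG class had higher median levels than the other isolated rows in every library, the untagged one included. Their medians were 0.656 rpm for Tip60 upon GFP KD, 0.522 rpm upon Hdac6 KD, 1.29 rpm for Hdac6 upon GFP KD, 1.41 rpm upon Tip60 KD and 0.518 rpm without a tag. Over the 9578 other isolated rows they were 0.469, 0.418, 0.518, 0.542 and 0.432 rpm. In dense groups they were 0.469, 0.365, 0.518, 0.542 and 0.432 rpm, and their average profiles were flat, with a highest point 1.02 to 1.07 times the mean coverage 1500 to 2000 bp away. Rows of a dense group share windows and reads, so they are not independent of each other. Neighbours lay a median of 166 bp apart, so the flank of a row often holds other rows of its group. The flat profile therefore cannot tell whether a dense group lies above its surroundings.

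Around isolated CpG rows the average Tip60 coverage upon GFP KD had a maximum on each side of the row (coverage in ppm, reads over a position per 1000000 reads in the library), 0.216 ppm at −420 bp and 0.229 ppm at 280 bp, with 0.197 ppm at −140 bp between them. Upon Hdac6 KD the upstream maximum was 0.191 ppm at −480 bp and the downstream one 0.179 ppm at 300 bp, with 0.143 ppm at the row itself. The untagged profile dipped to 0.143 ppm at −20 bp, between 0.194 ppm at −660 bp and 0.183 ppm at 800 bp. Hdac6 coverage upon GFP KD had 1 maximum, 0.255 ppm at 80 bp, which was 2.92 times the flank coverage. Upon Tip60 KD it reached 0.274 ppm at 120 bp. At RefSeq CpG rows the Tip60 maxima were 0.237 ppm (−420 bp) and 0.241 ppm (280 bp), and the Hdac6 maximum was 0.259 ppm (100 bp). The span of a read was 299 bp for the Tip60 and untagged libraries and 148 or 149 bp for Hdac6, so coverage in ppm cannot be set side by side between them. Levels in rpm account for the span, but the Hdac6 ratio to untagged also moved with GC content, as given below.

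The same shape was present where the annotation names no start. At the 365 isolated CpG rows without an annotated start, Hdac6 coverage upon GFP KD reached 0.219 ppm at 80 bp, 2.59 times its flank, against 0.265 ppm and 3.0 times at the 1323 CpG rows with one. The Tip60 maxima upon GFP KD were 0.189 ppm at −480 bp and 0.206 ppm at 240 bp, with 0.173 ppm at −180 bp between them. The untagged profile dipped there too, to 0.124 ppm at −100 bp, between 0.187 ppm at −800 bp and 0.169 ppm at 940 bp. Each side was searched for its own maximum, so a pair of maxima alone does not set Tip60 apart. Median Hdac6 levels were 1.21 and 1.38 rpm at rows without and with an annotated start, and untagged levels 0.475 and 0.518 rpm.

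**Figure D2:**
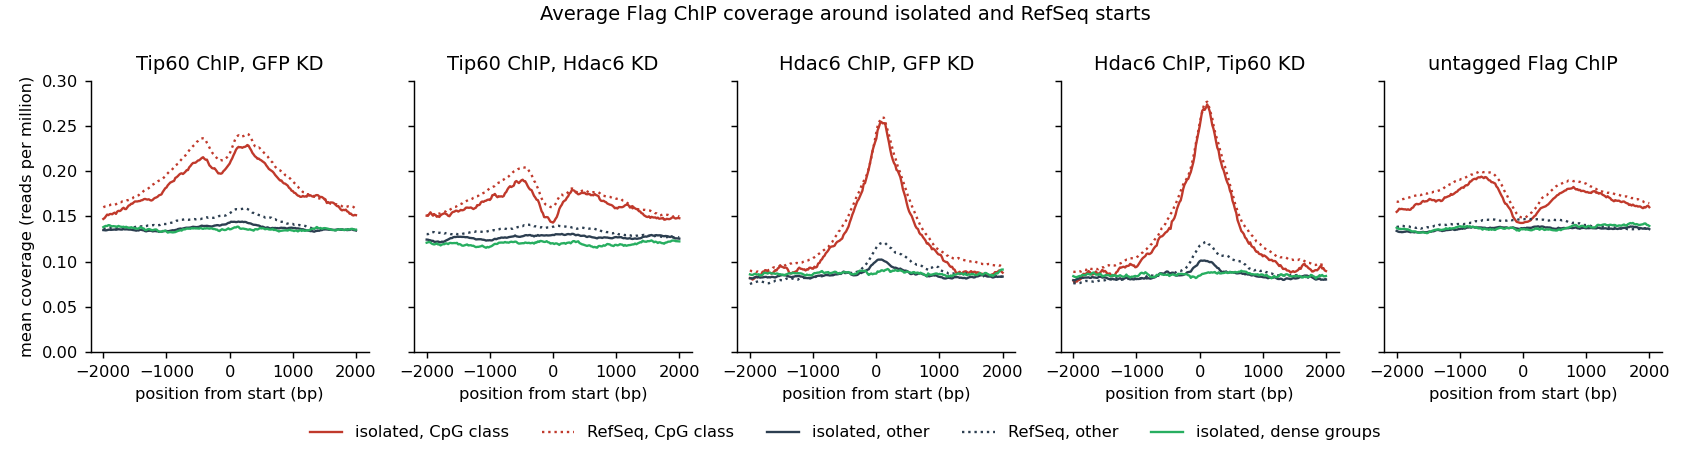
Mean coverage (ppm) against position from the row (bp, transcription to the right) in the 5 Flag libraries, for CpG rows (red), other rows (dark) and dense groups (green), isolated rows as solid and RefSeq rows as dotted lines. Red solid and dotted lines run close to each other, with the Tip60 pair of maxima upon GFP KD, the single Hdac6 maximum near 80 bp and the dip of the untagged library. The green lines are flat, but rows of dense groups lie so close together that their flanks hold other such rows.

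Tip60 binding upon GFP KD was compared with the untagged ChIP first. A row counted as higher at 2-fold or more in rpm with at least 20 reads in both libraries together, a count that 6766 of 11266 isolated rows reached, and fewer than 3 reads counted as 3. By this rule 740 isolated rows (6.57%) were higher, against 9.63% of all 36733 rows, and 408 (3.62%) were lower, against 3.25% of all rows. In the CpG class 15.6% of isolated and 16.7% of RefSeq rows were higher. Outside the class the shares were 4.97% and 5.13%, and in dense groups 4.46%. Summed over all isolated rows with no filter, the ratio of Tip60 to untagged was 1.08 (95% counting interval 1.07 to 1.09). It was 1.34 (1.31 to 1.36) for isolated CpG rows and 1.35 (1.34 to 1.36) for RefSeq CpG rows, 1.03 for other isolated rows and 1.00 for dense groups. Rows of dense groups count the same reads more than once, so no interval is given for them. For the same reason the interval over all isolated rows is too narrow. Lower calls in the dense groups, 4.25%, were about as many as higher ones.

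An exact conditional binomial test of the reads of both libraries (two-sided, Benjamini-Hochberg over all 36733 rows), which compares these libraries and not the conditions, passed 47 isolated rows as higher for Tip60, 0.417% against 1.14% of all rows. It passed 4 of the 11266 isolated rows as lower, against 24 of all 36733 rows (0.0653%). Of the 47, 28 were CpG rows, 24 coding starts, 6 noncoding starts and 3 in dense groups.

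Rows were ranked by fold over the untagged ChIP with fewer than 3 reads counted as 3. The ranking favours rows with few untagged reads, so other libraries above the untagged one there are no further evidence. First came the start of Gm11974, a lincRNA on chr11 (chr11:6428763, minus strand). It held 100 reads in the Tip60 ChIP upon GFP KD, 48 upon Hdac6 KD, 32 in the Hdac6 ChIP upon GFP KD, 21 upon Tip60 KD and 11 in the untagged ChIP. The Tip60 ChIP upon GFP KD was far above the other libraries, and the Hdac6 libraries were also above the untagged one in rpm. Its ratio to untagged was 9.86 (95% counting interval 5.28 to 20.4; exact test, adjusted p = 1.8e-16). Second was a row inside Zcchc11, which encodes a uridylyltransferase of small RNAs, at an exon start (chr4:108227987, plus strand). It held 24, 8, 8, 2 and 3 reads in the same order, and its ratio was 8.68 (2.64 to 45.0; exact test, adjusted p = 0.0044). In rpm the Hdac6 ChIP upon GFP KD was also above the untagged one, with a ratio of 5.33 that did not pass (1.28 to 31.2; adjusted p = 0.075 in the exact test).

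Srcap, whose product is the chromatin remodelling ATPase that places the histone variant H2A.Z, had an isolated row at an annotated start (chr7:134655516, plus strand). It held 33 reads in the Tip60 ChIP upon GFP KD, 25 upon Hdac6 KD, 18 in both Hdac6 libraries and 6 without a tag. All 4 tagged libraries were above the untagged one in rpm, which the ranking against that library favours. The Tip60 ratio was 5.97 (2.47 to 17.4; exact test, adjusted p = 0.0015). The sequences of these 3 rows, 150 bases before and 50 from the row on, mm9, 5′ to 3′ on the row's strand with CG dinucleotides in capitals, show that the rows high for Tip60 differ in CG content. Gm11974 and Srcap are dense in CG, and the Zcchc11 row has none and follows the bases cag.
Gm11974, minus strand, chr11:6428714-6428913: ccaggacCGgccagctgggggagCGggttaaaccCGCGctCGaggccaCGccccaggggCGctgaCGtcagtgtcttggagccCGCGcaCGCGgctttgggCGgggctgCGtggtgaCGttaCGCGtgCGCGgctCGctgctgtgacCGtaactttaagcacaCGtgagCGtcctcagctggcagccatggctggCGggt
Row inside Zcchc11, plus strand, chr4:108227837-108228036: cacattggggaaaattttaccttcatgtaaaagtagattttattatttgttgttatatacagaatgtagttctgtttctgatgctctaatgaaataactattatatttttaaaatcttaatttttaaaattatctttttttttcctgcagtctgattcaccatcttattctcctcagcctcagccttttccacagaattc
Srcap, plus strand, chr7:134655366-134655565: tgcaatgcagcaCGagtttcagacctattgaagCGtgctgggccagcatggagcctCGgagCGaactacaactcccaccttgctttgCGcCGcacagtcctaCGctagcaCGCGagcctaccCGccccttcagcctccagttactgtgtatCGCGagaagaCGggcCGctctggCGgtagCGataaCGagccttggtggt
These windows hold 24 CG dinucleotides at Gm11974, 0 at the Zcchc11 row and 17 at Srcap.

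The other 5 of the 8 rows ranked highest rested on 1 to 3 untagged reads. A row inside Rnf217 (chr10:31254609), a gene for a ubiquitin ligase, had 20 Tip60 reads upon GFP KD and 3 untagged reads, a ratio of 7.23 (2.14 to 38.0). A row at an exon start inside Herc2 (chr7:63452426), which encodes a large ubiquitin ligase of the DNA damage response, had 20 and 2 reads, a ratio of 10.8 (2.63 to 95.7). The noncoding gene Gm12130 (chr11:38333512) had 17 Tip60 reads upon GFP KD and 2 in every other library, a ratio of 9.22 (2.19 to 82.3). Ceacam15 (chr7:17261054), of the carcinoembryonic antigen family, had 17 and 2 reads, again 9.22, and a row outside genes at chr14:115345156 had 17 and 1, a ratio of 18.4 (2.89 to 771). Adjusted p-values of these 5 rows in the exact test ran from 0.0095 to 0.038. All 5 lay outside the CpG class, and upon Hdac6 KD they held 2 to 8 reads. They were chosen by high counts upon GFP KD, so lower counts in the other Tip60 library say nothing about the KD. Of the 8 rows ranked highest for Tip60, 8 passed after correction for GC content, 6 with libraries scaled to equal totals, 5 within 1000 bp and 1, Gm11974, within 250 bp, a window that holds fewer reads.

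Hdac6 upon GFP KD was set against the untagged ChIP in the same way. By the fold rule, 1920 isolated rows (17.0%) were higher, against 29.3% of all rows, with 5289 rows at 20 reads or more, and 241 (2.14%) were lower, against 1.56% of all rows. In the CpG class 52.9% of isolated and 54.9% of RefSeq rows were higher, outside it 10.7% and 15.1%, and in dense groups 9.25%. The exact test passed 1238 isolated rows as higher (11.0%, against 20.2% of all rows). It passed 51 of the 11266 as lower, a larger share than the 116 of all 36733 rows (0.316%). Of the 1238, 665 were CpG rows and 637 coding starts. The summed ratio was 1.54 (1.53 to 1.56) for all isolated rows, 2.48 (2.43 to 2.52) for isolated CpG rows, 2.42 (2.40 to 2.44) for RefSeq CpG rows and 1.31 for dense groups.

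The Hdac6 ratio moved with GC content far from any start as well. Over isolated rows by GC content, in 5 bins from under 40% to 70% and more, the summed ratio was 0.690, 1.19, 1.73, 2.37 and 3.39. In windows 1500 to 2000 bp away, with no other row within 1000 bp, the ratio in the same bins was 0.579, 1.09, 1.81, 2.85 and 4.64, the last bin from 50 windows only. For Tip60 upon GFP KD the isolated rows had 0.972, 1.03, 1.06, 1.31 and 1.37 and the distant windows 0.973, 0.971, 0.985, 1.08 and 1.38. With each row divided by the ratio in distant windows of its GC content, the summed Hdac6 ratio over isolated rows was 1.01 and that of isolated CpG rows 0.935, and 406 rows (3.6%) were higher, against 3.95% of all rows. The Tip60 ratio over isolated rows was 1.09 with the correction, 1.25 for CpG rows, with 705 rows (6.26%) higher against 8.47% of all rows. The part of GC content in the Hdac6 maximum of the average profile was not tested.

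**Figure D3:**
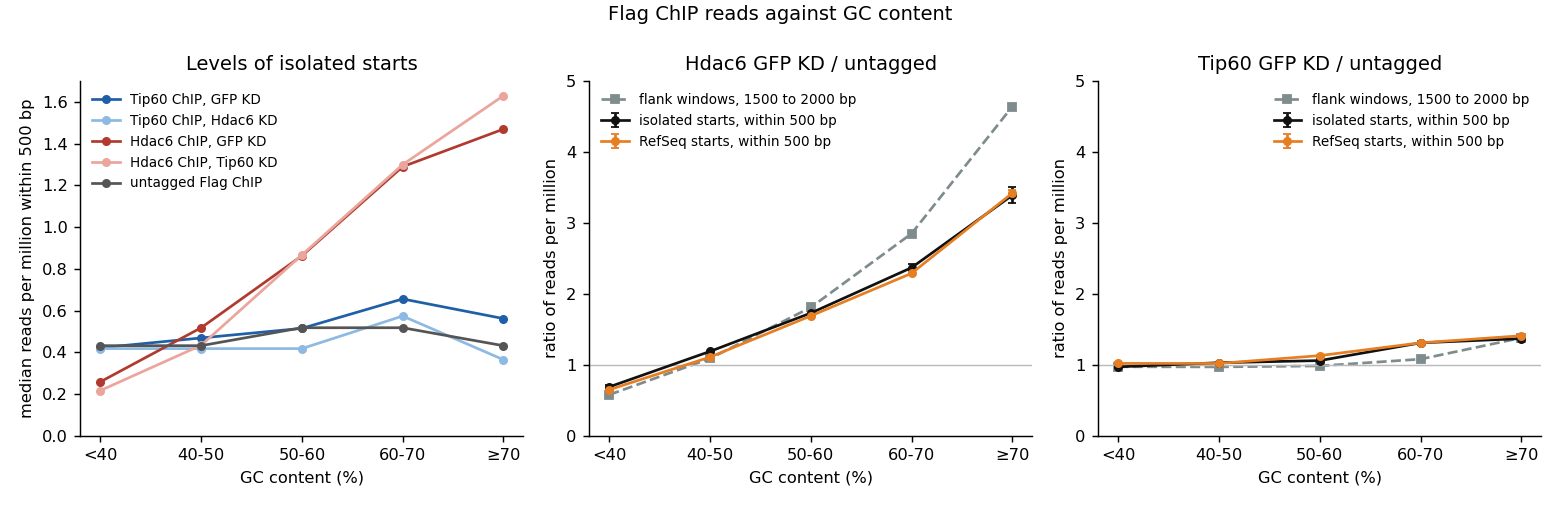
Left, median rpm within 500 bp of isolated rows in 5 bins of GC content for the 5 libraries. Middle and right, ratio of Hdac6 or Tip60 ChIP upon GFP KD to untagged in rpm for isolated rows, RefSeq rows (bars, 95% counting intervals) and windows 1500 to 2000 bp away (grey, dashed). The Hdac6 ratio climbs with GC content in distant windows, to 4.64, as it does at the rows, to 3.39, while the Tip60 ratio at 60 to 70% GC is 1.31 at the rows and 1.08 in distant windows.

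All 8 rows ranked highest for Hdac6 were coding starts in the CpG class, with 73.1 to 82.4% GC. Distant windows with at least 70% GC numbered 50, so corrected values of such rows can rest on few windows. The start of Fam117b (chr1:59969850, plus strand) held 13 reads in the Tip60 ChIP upon GFP KD, 6 upon Hdac6 KD, 30 in the Hdac6 ChIP upon GFP KD, 28 upon Tip60 KD and 3 in the untagged ChIP. Both Hdac6 libraries were highest there, and the Tip60 ChIP upon GFP KD was also above the untagged one. Ranking by Hdac6 over the untagged library favours such an order. The Hdac6 ratio was 20.0 (6.21 to 102), with an adjusted p of 1.9e-08 in the exact test, and 4.31 with an adjusted p of 0.46 after correction for GC content. The start of Rapgef4 (chr2:71819344, plus strand), which encodes an exchange factor of Rap proteins that cAMP activates, held 27 reads for Hdac6 upon GFP KD, 18 upon Tip60 KD and 0 without a tag, with 11 and 2 for Tip60. With the 0 untagged reads taken as the floor of 3, the fold of Hdac6 over untagged there was 18.0. The counting interval of the ratio itself began at 13.6 (adjusted p = 6.6e-10 in the exact test). Of the 8, it was the row that passed after the correction, with an adjusted p of 0.0098.

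The 6 others were E330009J07Rik, Pcsk6, Aff3, Dchs1, Rnf157 and Slc4a4. Their Hdac6 reads upon GFP KD ran from 21 to 27 and their untagged reads from 2 to 4, and their ratios from 13.5 to 23.0, the latter at Pcsk6 with 23 and 2 reads (interval 5.68 to 201). Pcsk6 encodes a convertase that processes secreted ligands, Dchs1 a large cadherin of planar cell polarity, Aff3 a nuclear protein of the AF4 family, Rnf157 a ubiquitin ligase and Slc4a4 a sodium bicarbonate cotransporter. After the correction their ratios ran from 2.91 to 4.56 and none passed the exact test, with adjusted p-values from 0.44 to 0.81.

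**Figure D4:**
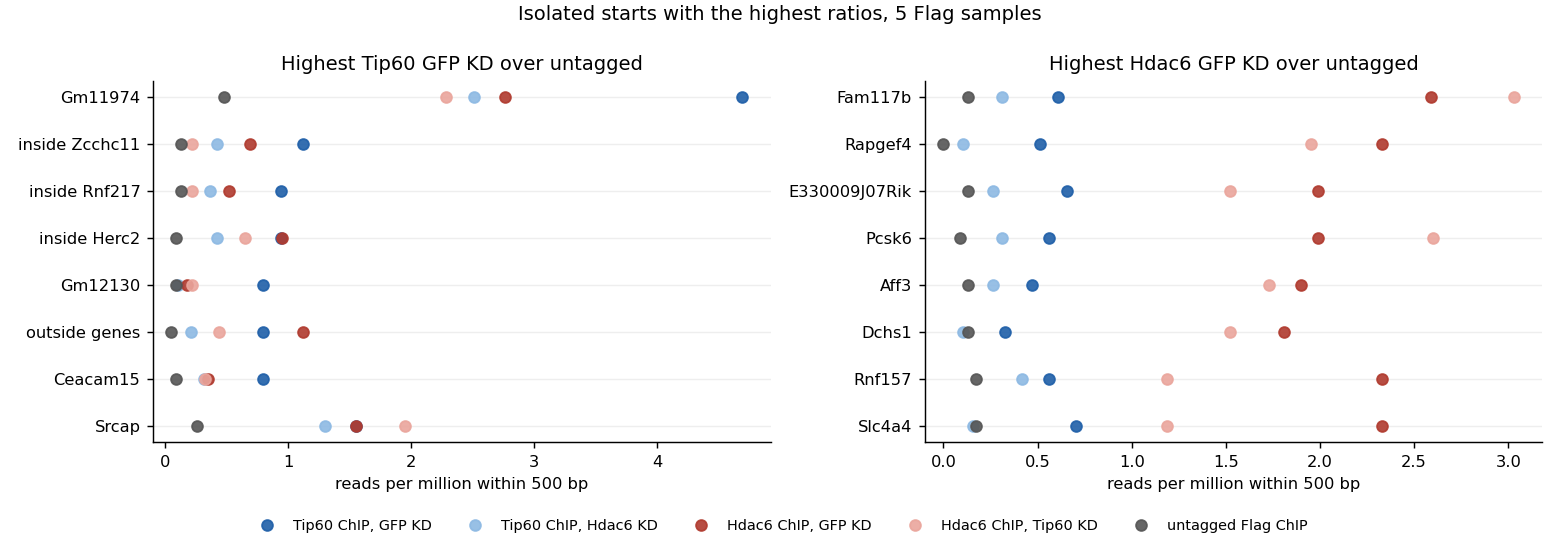
Level in rpm within 500 bp in the 5 libraries (points) for the 8 isolated rows ranked highest by fold of Tip60 (left) or Hdac6 (right) upon GFP KD over untagged among those past the exact test, before correction for GC content. On the left, Gm11974 lies far to the right for Tip60 upon GFP KD. On the right, both Hdac6 libraries lie apart from the untagged library at all 8 rows, and Rapgef4 has 0 untagged reads. The choice of rows by this fold favours gaps to the untagged library.

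Genes with both an isolated start and a RefSeq start allow a comparison within a gene and a library. There were 1052 such pairs in 896 genes, a median of 30.8 kb apart. In 239 pairs the isolated start was in the CpG class and the RefSeq start was not. Median Hdac6 levels upon GFP KD were then 1.38 rpm at the isolated and 0.604 rpm at the RefSeq start, and the isolated start was higher in 86.6% of pairs. For Tip60 upon GFP KD the medians were 0.656 and 0.515 rpm, with the isolated start higher in 59.8%. Without a tag they were 0.475 and 0.518 rpm, and it was higher in 43.5%. In the 347 pairs of the opposite kind, with the RefSeq start in the CpG class, the isolated start was higher in 12.1% of pairs for Hdac6, 25.6% for Tip60 and 41.8% without a tag. In the 443 pairs with neither start in the class it was higher in 45.4, 46.5 and 45.8%. Pairs of 1 gene share a library, and no correction for GC content was made here.

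Slc4a4 is an example with a CpG isolated start 141 kb upstream of its RefSeq start. The isolated start was among the rows ranked highest for Hdac6 over untagged. Many Hdac6 and few untagged reads there were thus set by the choice and are no further evidence. At the isolated start (chr5:89316285) the reads were 15 for Tip60 upon GFP KD, 3 upon Hdac6 KD, 27 for Hdac6 upon GFP KD, 11 upon Tip60 KD and 4 without a tag. At the RefSeq start (chr5:89457102) they were 10, 14, 2, 4 and 21. Hdac6 upon GFP KD had the most reads of the 5 libraries at the isolated start and the fewest at the RefSeq start, where the untagged library had the most. The windows around both, with CG dinucleotides in capitals, and that of Fam117b, the row ranked first for Hdac6, show the contrast in CG content on which the GC correction acts.
Slc4a4 isolated start, plus strand, chr5:89316135-89316334: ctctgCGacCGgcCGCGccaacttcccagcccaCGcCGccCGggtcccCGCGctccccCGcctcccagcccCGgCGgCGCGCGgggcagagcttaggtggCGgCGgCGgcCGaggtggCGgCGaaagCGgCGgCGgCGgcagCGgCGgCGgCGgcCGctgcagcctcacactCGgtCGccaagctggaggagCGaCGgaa
Slc4a4 RefSeq start, plus strand, chr5:89456952-89457151: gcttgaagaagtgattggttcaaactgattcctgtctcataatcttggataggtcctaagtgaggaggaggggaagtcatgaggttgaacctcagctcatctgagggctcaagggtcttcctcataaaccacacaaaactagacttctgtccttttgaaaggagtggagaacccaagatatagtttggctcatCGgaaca
Fam117b, plus strand, chr1:59969700-59969899: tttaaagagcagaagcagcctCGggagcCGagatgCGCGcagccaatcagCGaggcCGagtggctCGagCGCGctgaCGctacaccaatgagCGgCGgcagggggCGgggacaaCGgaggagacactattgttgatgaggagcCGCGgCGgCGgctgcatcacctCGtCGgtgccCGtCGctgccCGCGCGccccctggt
The windows hold 34, 1 and 25 CG dinucleotides.

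Tip60 binding upon Hdac6 KD was compared with GFP KD, the comparison that asks whether Hdac6 is needed for Tip60 at its sites. By the fold rule 773 isolated rows (6.86%) were lower upon Hdac6 KD, against 9.40% of all rows, and 416 (3.69%) were higher, against 3.34%; 5351 rows had 20 reads or more. The share of lower rows was 12.6% in isolated and 13.7% in RefSeq CpG rows, 5.86% and 6.98% outside the class, and 6.85% in dense groups. Summed over isolated rows the ratio was 0.894 (0.887 to 0.902), and it was 0.784 in isolated CpG rows (0.770 to 0.799) as in RefSeq CpG rows (0.778 to 0.790). By GC content the ratio of isolated rows was 1.07, 0.943, 0.862, 0.798 and 0.681, and that of the distant windows 1.05, 0.944, 0.856, 0.770 and 0.699. Corrected for GC content, the ratio was 1.00 over isolated rows and 0.997 over isolated CpG rows, with 514 rows (4.56%) lower against 5.55% of all rows.

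The exact test passed 9 isolated rows as lower upon Hdac6 KD, 0.0799% against 0.351% of all rows, and 8 as higher, 0.0710% against 0.0463%. Of the 9 lower rows 7 were in the CpG class, and of the 8 higher rows none. An isolated start of Irak2 (chr6:113588497), a kinase of interleukin-1 signalling, 31.3 kb upstream of its RefSeq start, had 26 Tip60 reads in the GFP KD library and 3 in the Hdac6 KD library, with 18 untagged reads and 16 in both Hdac6 libraries. It was low in the Tip60 ChIP upon Hdac6 KD alone, with a ratio of 0.129 (0.0249 to 0.419; exact test, adjusted p = 0.028). The RefSeq start of Irak2 held 19 and 17 Tip60 reads. A CpG row outside genes (chr2:27298039) had 46 reads upon GFP KD, 7 upon Hdac6 KD, 11 and 19 in the Hdac6 ChIP and 18 without a tag, a ratio of 0.169 (0.0646 to 0.378; exact test, adjusted p = 0.00087). It passed after correction for GC content too, with an adjusted p of 0.017, which Irak2 did not, with 0.1.

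After the correction none of the next 3 lower rows passed. They were Brms1l (chr12:56937353), a subunit of Sin3 histone deacetylase complexes, and rows inside Tmem221 (chr8:74082477) and Ccdc74a (chr16:17646711). Upon GFP KD, upon Hdac6 KD and without a tag, Brms1l held 19, 1 and 8 reads, the Tmem221 row 25, 3 and 9, and the Ccdc74a row 18, 1 and 17. At the Ccdc74a row Tip60 upon GFP KD was near the untagged ChIP, with a ratio of 1.15 (0.559 to 2.37). The higher rows included an isolated start of Tpr (chr1:152276465), a protein of the nuclear pore basket, with 4 reads upon GFP KD, 25 upon Hdac6 KD and 15 without a tag. Its ratio was 6.96 (2.40 to 27.5; adjusted p = 0.022 in the exact test). The other higher rows with the largest ratios were Tnik (chr3:28308353), a kinase of Wnt signalling, with 3 and 20 reads, chr4:93975591 inside Gm12648 with 4 and 25, chr14:54733056 outside genes with 5 and 28, and chr13:38148542 inside Riok1 with 4 and 22. Of these 5, chr14:54733056 and chr4:93975591 passed after correction for GC content, with adjusted p-values of 0.034 and 0.046. Of the 10 rows named here, 5 per direction, 1 passed within 250 bp (chr2:27298039), 3 after correction for GC content, 4 at equal totals and 5 within 1000 bp. At all 5 higher rows the untagged library held 10 to 17 reads, above the Tip60 ChIP upon GFP KD.

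Hdac6 binding upon Tip60 KD differed little from GFP KD at isolated rows. By the fold rule 120 rows (1.07%) were lower, against 1.62% of all rows, and 122 (1.08%) were higher, against 1.94%, with 3242 rows at 20 reads or more. The summed ratio was 1.01 (1.00 to 1.02), and 1.05 (1.03 to 1.07) in the CpG class. The exact test passed 0 isolated rows as lower, as it did 0 of all rows (percent called 0). At an unadjusted p under 0.05 in that test, 99 isolated rows (0.879%) were lower and 127 (1.13%) higher, against 1.01% and 1.57% of all rows. After adjustment 1 row was higher (0.00272% of all rows), a mitochondrial position inside mt-Nd5 (chrM:12406). It held 1725, 2036, 1516, 1450 and 1625 reads in the order used above, and its ratio upon Tip60 KD was 1.20 (1.12 to 1.29; exact test, adjusted p = 0.026). With libraries scaled to equal totals it did not pass, with an adjusted p of 0.088 in the exact test. The same row was also higher in the Tip60 ChIP upon Hdac6 KD than upon GFP KD, with a ratio of 1.31 (1.23 to 1.40; exact test, adjusted p = 2.3e-12). The 5 mitochondrial rows are isolated only because no RefSeq row lies on that chromosome.

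**Figure D5:**
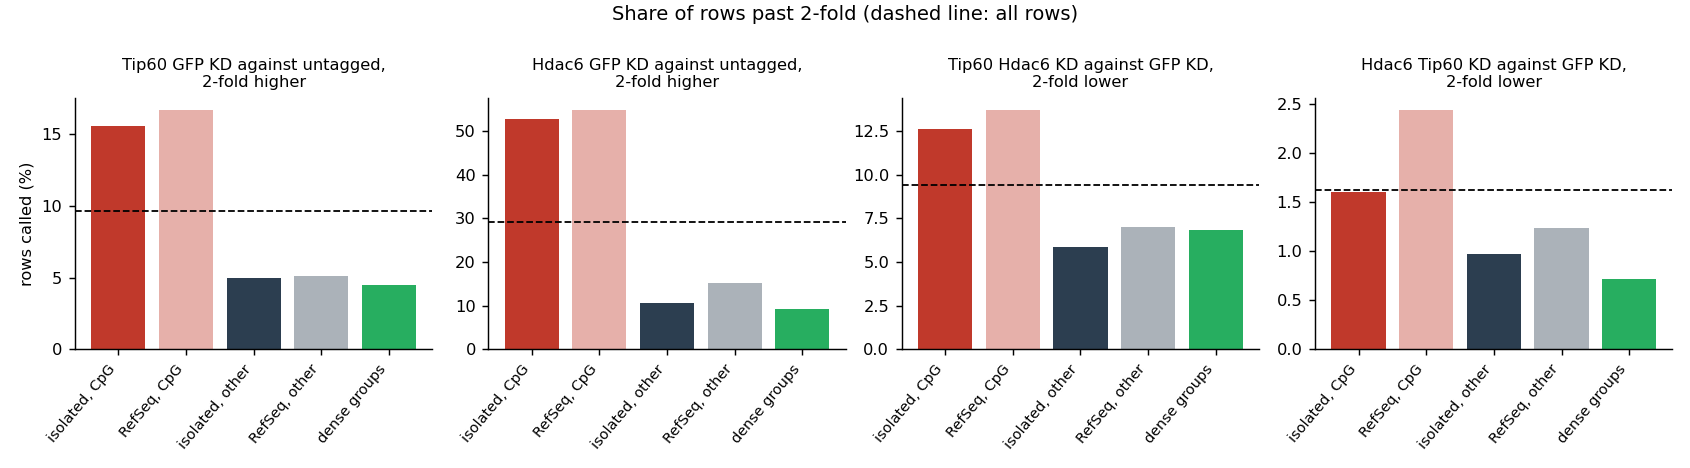
Share of rows (%) past 2-fold in the direction named above each panel, for isolated and RefSeq CpG rows, other isolated and RefSeq rows, and dense groups. Dashed lines mark the share of all 36733 rows, and axes differ between panels. Isolated and RefSeq rows of a CpG class have shares close to each other, 52.9 and 54.9% for Hdac6 over untagged, and the dense groups lie below the line in all 4 panels.

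Long noncoding RNA genes were also looked up by name. Of 30 genes listed, 14 had isolated rows, 20 in all, and none had a RefSeq row. None of the 20 passed the exact test as higher for Tip60 over untagged, against 1.14% of all rows. For Hdac6 3 of the 20 did, against 20.2% of all rows. Dleu2, host of miRNAs lost in leukaemia, had at chr14:62267650 30 reads for Tip60 upon GFP KD, 21 upon Hdac6 KD, 23 for Hdac6 upon GFP KD, 11 upon Tip60 KD and 14 without a tag (Hdac6 ratio 3.28, 1.62 to 6.90; exact test, adjusted p = 0.0068). Pvt1, next to Myc, had 21, 15, 18, 14 and 9 reads (ratio 4.00, 1.70 to 10.1; exact test, adjusted p = 0.0079). Airn, which silences Igf2r in cis, had 8, 11, 18, 7 and 12 (ratio 3.0, 1.37 to 6.82; exact test, adjusted p = 0.03). Corrected for GC content, the ratios of these 3 were 1.09, 1.69 and 1.61, and none passed, nor did any at equal totals.

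Malat1, an abundant nuclear RNA, was highest in the untagged library, with 27, 11, 13, 13 and 45 reads in the same order. Xist, which coats the inactive X chromosome, had 8, 7, 4, 4 and 8 reads, and its antisense partner Tsix 7, 16, 8, 13 and 12. The first Meg3 row held 11, 9, 8, 12 and 11 reads, Rian 10, 15, 6, 1 and 17, and Mirg 10, 15, 8, 7 and 6, all from the imprinted Dlk1-Dio3 region. H19 had 7, 6, 11, 6 and 8 reads. None of these rows passed the exact test of Tip60 or Hdac6 against untagged. The remaining rows, of Neat1, Sox2ot, Snhg12, Dlx6os1, Meg3 and the second Dleu2 start, did not pass in them either.

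Small RNA genes had 18 isolated rows. Of all rows, 20.2% passed the exact test as higher for Hdac6 over untagged. Among small RNA rows, Mir194-2 passed this exact test with 29 against 17 reads (adjusted p = 0.0014), Mir144 with 16 against 8 (0.014) and the spliceosomal U11 RNA gene with 37 against 36 (0.022). Their Tip60 reads upon GFP KD were 15, 9 and 37, and these rows were not corrected for GC content. The 127 immunoglobulin and T cell receptor segments, gene pieces that are silent outside lymphocytes, were near background, with summed ratios to untagged of 0.962 (0.878 to 1.05) for Tip60 and 1.04 (0.934 to 1.16) for Hdac6. Rows with Rik symbols (799) had 1.13 and 1.63, those with Gm symbols (534) 1.07 and 1.47, and 80 rows named by a sequence accession 1.21 and 1.51.

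The isolated rows with most untagged reads, apart from mt-Nd5, were high in every library. A row inside Sfi1 (chr11:3033889) held 217, 188, 285, 213 and 198 reads. A row in the pseudogene Gm11400 (chr11:3050541) held 191, 121, 255, 229 and 151, and one in Pisd-ps2 (chr17:3082572) 165, 114, 139, 104 and 129. Reads with several matches were placed at random by the authors, and whether these rows lie in repeated sequence was not tested, so their counts are uncertain. Gm16532 (chr7:6362987) held 191, 86, 152, 117 and 183 reads and was lower in the Tip60 ChIP upon Hdac6 KD than upon GFP KD, with a ratio of 0.501 (adjusted p = 0.00022 in the exact test). Tip60 upon GFP KD was near the untagged ChIP at this row, with a ratio of 1.13 (0.919 to 1.39).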

How the data were processed

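Flag ChIP-seq of 5 ESC samples was used, 1 sample per group. Per the submitters' processing notes and the study's methods, the authors processed reads with CASAVA 1.8.2 and Bowtie (version not given in the sources used here), collapsed identical reads while keeping their number, mapped them to mm9 with 1 mismatch allowed, placed reads with several matches at 1 random location, extended them, removed simple repeats and tallied coverage around each TSS. The deposited values are a coverage signal scaled by library size (ppm) in 20 bp bins, over 2000 bp on either side of each row.

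All values were whole multiples of what 1 read is worth (within 0.02 of a whole number), which gave reads and the number each library was normalized to. Reads within 500 bp were summed. Ratios are of reads scaled to library size (rpm), with exact 95% intervals that treat the summed reads as independent. Where windows of rows overlap, as in dense groups, reads count more than once and intervals of summed ratios are too narrow. Rows were compared by 2-fold change (20 reads in both libraries together, floor of 3 reads) and by the exact conditional binomial test. Names and places came from GENCODE M1 by position on mm9, since isolated rows carry no symbol in the files. The share of soft-masked bases was not analysed, because the genome used is in capitals throughout. For the correction for GC content, ratios were divided by the ratio in windows 1500 to 2000 bp away in bins of 2.5 percentage points. Bins with at least 20 windows were used, from the one that begins at 22.5% GC to the one that begins at 70.0%. Rows outside this range took the ratio of the nearest bin used. The named rows were the 8 with the largest fold for each tagged protein, 5 per direction in each KD comparison, the 5 with most untagged reads, and the noncoding and small RNA lists, with 1 row per group. Members and lists were chosen with earlier results of these data known. Python 3.11.15, numpy 2.4.6, scipy 1.17.1, pandas 2.3.3, matplotlib 3.10.9 and pysam 0.24.0 were used, and the scripts were tested on simulated data. Alternatives were other windows, scalings, minimums, folds and row sets.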

Additional observations from a re-analysis of the deposited data

How the results depend on the processing

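With 1 sample per group no replicate could be left out, and counting error is the only error known. No paired analysis was possible because each group holds 1 sample. Counts are given in the order Tip60 over untagged, Hdac6 over untagged, Tip60 lower upon Hdac6 KD and Hdac6 lower upon Tip60 KD, and were 740, 1920, 773 and 120 rows. They became 137, 340, 81 and 25 within 250 bp, 1627, 2947, 1487 and 471 at 1.5-fold, 171, 835, 237 and 22 at 3-fold, 1238, 2896, 1919 and 630 with no minimum of reads, and 47, 1238, 9 and 0 by the exact test. Within 1000 bp the first and last were 451 and 247. With 10 reads the first, the third and the last were 1170, 1833 and 606. Hdac6 over untagged gave 1081 rows with libraries scaled to equal totals and 406 with the correction for GC content, which gave 514 for the Tip60 decrease. The summed ratios were 1.08, 1.54, 0.894 and 1.01. The first 3 were 1.10, 1.67 and 0.881 within 250 bp, 1.04, 1.40 and 0.908 within 1000 bp, 1.03, 1.12 and 0.99 at equal totals and 1.10, 1.32 and 0.952 scaled on distant windows. With the correction for GC content the second and the third were 1.01 and 1.00. The latter is a sum over rows, and 514 rows (4.56%) were at least 2-fold lower for Tip60 upon Hdac6 KD, against 5.55% of all rows. With 1 row per group, the first, second and last were 1.10, 1.60 and 1.02. Without dense groups, an alternative chosen after seeing the data, they were 1.10, 1.62 and 1.02. Beyond 10000 bp from RefSeq rows the second was 1.53. Named rows past the exact test lost the call in 60 of 150 alternatives. For Tip60 upon Hdac6 KD, 9 of 10 rows lost it within 250 bp, 7 with the correction for GC content, 6 at equal totals, 5 within 1000 bp and 3 scaled on distant windows. For Tip60 over untagged, 7 of 8 lost it within 250 bp, and for Hdac6 over untagged 10 of 11 with the correction. Among named rows not past the test 1, Mirg for Hdac6 within 1000 bp, gained a call, and 0 turned direction. Except where the alternative itself has fewer reads or rows, the cause was not tested.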
